A study of Mus musculus with 37 samples.

Results

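The transcripts described here are 32 genes of the oligodendrocyte lineage, of 21975 genes in the deposited tables, chosen by symbol and mapped from the gene identifiers. They comprise 23 genes of mature, myelinating oligodendrocytes (Mbp, Mog, Mag, Mobp, Cnp, Cldn11, Mal, Opalin, Ermn, Ugt8a, Gjb1, Myrf, Aspa, Tspan2, Trf, Car2, Plekhb1, Apod, Fa2h, Gpr37, Sept4, Ppp1r14a and Klk6), 6 genes of precursors and newly committed cells (Pdgfra, Cspg4, Gpr17, Nkx2-2, Enpp6 and Bcas1) and 3 transcription factors of the whole lineage (Sox10, Olig1 and Olig2). All were measured in RNA from hippocampal cells collected with ACSA-2 microbeads, which bind an astrocyte surface antigen, so the question is how much oligodendrocyte-lineage RNA such isolates carried and whether it moved with injury, epilepsy or hemisphere. Mice received a controlled cortical impact (CCI) or sham surgery and the tissue was taken 4 months later. Injured mice with post-traumatic epilepsy on video-EEG were PTE+ and those without it were PTE-.

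The contralateral hemisphere gave 5 PTE+, 10 PTE- and 5 sham libraries, and the ipsilateral (injured side) hemisphere 4 PTE+, 8 PTE- and 5 sham libraries. The 37 libraries came from 20 mice, 17 of which had both sides. The labels give the genotype of injured and sham animals alike as WT CD31, whereas the methods name adult male CD1 mice, and no transgene or drug is listed for any group. Each library is named here by group and mouse. Mouse names begin with a8 or a9, a prefix the labels do not explain, and both prefixes occur in every group.

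Oligodendrocytes arise from precursors that carry the PDGF receptor encoded by Pdgfra and the NG2 proteoglycan encoded by Cspg4. OLIG1, OLIG2 and SOX10 hold the cells in the lineage, a brief committed stage expresses Gpr17, Enpp6 and Bcas1, and maturing cells switch on MYRF and the genes that build myelin, the compacted membrane around axons. In hippocampus, as elsewhere in the adult brain, precursors and myelinating cells lie among the astrocytes, and several genes of the list are shared with other cells: astrocytes can also transcribe Car2 and Olig2, mural cells carry Cspg4, fibroblasts Pdgfra and Apod, and choroid plexus Trf and Car2.

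The libraries carried 25371887 to 59846479 estimated counts and detected 9020 to 15545 genes. All 15 astrocyte markers examined, among them Aldoc, Slc1a3, Gja1 and Aqp4, exceeded 3 counts in all 37 libraries, and their summed level was 22460 to 54520 CPM (the count of a gene scaled to the library total). Markers of other cells were present at lower sums. The sums were 29.3 to 1276 CPM for 11 microglial genes, 86.9 to 1746 for 10 neuronal genes, 144 to 4330 for 7 endothelial genes, 842 to 4136 for 9 mural and fibroblast genes and 0.0668 to 4941 for 6 choroid plexus genes. The choroid plexus sums of ipsilateral PTE- a9_12 (4941 CPM) and a8_11 (4242 CPM) stood apart, with at most 659 CPM in any other library. Ipsilateral PTE- a8_11 was also the library with the fewest genes and the lowest astrocyte sum, and had 14 members above 3 counts. In these bulk samples fewer cells of a type and less RNA per cell cannot be told apart.

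The start regions of 4 members are shown because the comparisons turn on them. They were chosen after the values were seen, in place of an earlier choice of Mobp, Mog, Olig2 and Pdgfra, and serve Sept4 for the difference between hemispheres, Apod and Mog for the group comparisons and Mobp for its near on-off levels. Each is 250 bases before to 50 after a RefSeq start on GRCm38.p6, written 5′ to 3′ on the strand of the gene. Capitals mark ACAAAG or ACAATG, letters that SOX factors bind, and CAGCTG, an E-box of the kind that OLIG2 binds, searched on both strands (CTTTGT and CATTGT are the other strand of the first pair, and CAGCTG reads the same on both). Sept4 (chromosome 11, + strand) has several annotated starts, of which 3 are shown.
Sept4, chr11:87566439-87566738: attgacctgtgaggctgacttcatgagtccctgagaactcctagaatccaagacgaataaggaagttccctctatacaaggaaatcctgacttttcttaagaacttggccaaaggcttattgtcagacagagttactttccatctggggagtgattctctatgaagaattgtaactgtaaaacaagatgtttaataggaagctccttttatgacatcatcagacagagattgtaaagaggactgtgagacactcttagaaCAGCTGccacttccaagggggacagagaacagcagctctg
Sept4, chr11:87578139-87578438: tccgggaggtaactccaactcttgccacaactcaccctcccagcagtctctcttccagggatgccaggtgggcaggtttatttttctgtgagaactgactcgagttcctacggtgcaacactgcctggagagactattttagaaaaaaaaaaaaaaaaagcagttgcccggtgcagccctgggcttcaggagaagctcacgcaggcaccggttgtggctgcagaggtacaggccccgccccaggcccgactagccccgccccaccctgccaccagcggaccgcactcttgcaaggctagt
Sept4, chr11:87580811-87581110: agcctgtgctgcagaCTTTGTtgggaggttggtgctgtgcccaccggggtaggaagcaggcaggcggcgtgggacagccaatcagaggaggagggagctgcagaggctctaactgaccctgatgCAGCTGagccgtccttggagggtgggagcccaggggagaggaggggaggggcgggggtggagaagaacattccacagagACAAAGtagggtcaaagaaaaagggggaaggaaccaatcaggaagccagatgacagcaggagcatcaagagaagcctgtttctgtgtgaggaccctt
Apod, chr16:31314759-31315058, - strand: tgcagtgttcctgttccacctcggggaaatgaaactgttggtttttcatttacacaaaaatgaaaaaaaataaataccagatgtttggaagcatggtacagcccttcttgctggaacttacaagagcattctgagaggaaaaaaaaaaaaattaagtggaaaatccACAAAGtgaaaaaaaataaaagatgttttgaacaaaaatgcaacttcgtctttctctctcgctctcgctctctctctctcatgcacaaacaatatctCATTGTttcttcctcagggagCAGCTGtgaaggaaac
Mobp, chr9:120149492-120149791, + strand: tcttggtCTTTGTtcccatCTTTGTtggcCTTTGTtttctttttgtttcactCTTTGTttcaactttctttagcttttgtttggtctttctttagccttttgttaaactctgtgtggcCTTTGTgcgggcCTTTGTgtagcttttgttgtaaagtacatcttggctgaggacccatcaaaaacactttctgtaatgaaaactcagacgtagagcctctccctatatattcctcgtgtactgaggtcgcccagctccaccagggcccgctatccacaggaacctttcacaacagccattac
Mog, chr17:37023349-37023648, - strand: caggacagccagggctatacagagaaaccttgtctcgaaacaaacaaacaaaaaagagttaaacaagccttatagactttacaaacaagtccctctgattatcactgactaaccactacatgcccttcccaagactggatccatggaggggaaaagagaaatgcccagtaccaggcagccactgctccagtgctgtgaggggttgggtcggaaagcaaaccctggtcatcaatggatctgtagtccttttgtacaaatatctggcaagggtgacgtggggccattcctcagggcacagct
The Mobp window held 6 copies of CTTTGT and the Mog window none of the searched letters. Among 34 member start regions of 23 genes, 35.3% held ACAAAG, 17.6% ACAATG and 14.7% CAGCTG. Among all 32851 start regions of the same length the shares were 18.7%, 12.6% and 16.3%. These matches describe the letters only, and the member regions include overlapping starts of the same gene.

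Detection divided the list, about as it divided all genes detected. In every library 9 members exceeded 3 counts: Mbp, which holds the cytoplasmic faces of myelin together, Cnp, a phosphodiesterase of non-compact myelin, Car2, a carbonic anhydrase, Plekhb1, a membrane-binding adaptor, Apod, a secreted lipocalin, Gpr37, a receptor of maturing oligodendrocytes, Sept4, a septin of the submembrane cytoskeleton, Cspg4 and Olig1. Mog, a glycoprotein of the outermost myelin surface, Cldn11, which seals myelin lamellae, Opalin and Ermn, late myelin proteins, Gjb1, a gap-junction connexin, Klk6, a protease of mature oligodendrocytes, and Enpp6, a phosphodiesterase of newly forming oligodendrocytes, did so in 1 to 16 libraries, and the other 16 members lay between. Over the 18272 genes above 3 counts in any library, 22.7% were so in every library and 25.9% in the minority of libraries. Klk6 was above 3 counts only in ipsilateral PTE+ a9_18, at 7.81 CPM.

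Per transcript length, the most abundant members were Car2 (median over libraries 811 TPM, the deposited length-scaled level), Plekhb1 (660 TPM), Apod (380 TPM), Cnp (351 TPM) and Olig1 (319 TPM). Sept4 followed at 246 TPM and Mbp at 205 TPM, whereas Mobp, a small myelin protein, had 22.3 TPM, Mag, an adhesion molecule facing the axon, 3.11 TPM, and Mog 0 TPM. These are levels, and those of neighbours such as Apod, Cnp and Olig1 overlapped widely across libraries. Car2, Plekhb1, Cnp, Apod and Sept4 together made up 52.1% to 88.9% (median 81.0%) of the summed CPM of the mature members. Which cells of these astrocyte isolates held the RNA of these 5 members was not tested. The mature sum and the Sept4 values therefore cannot be read as oligodendrocyte RNA alone. Mbp contributed 0.758% to 32.4% of it.

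**Figure D1:**
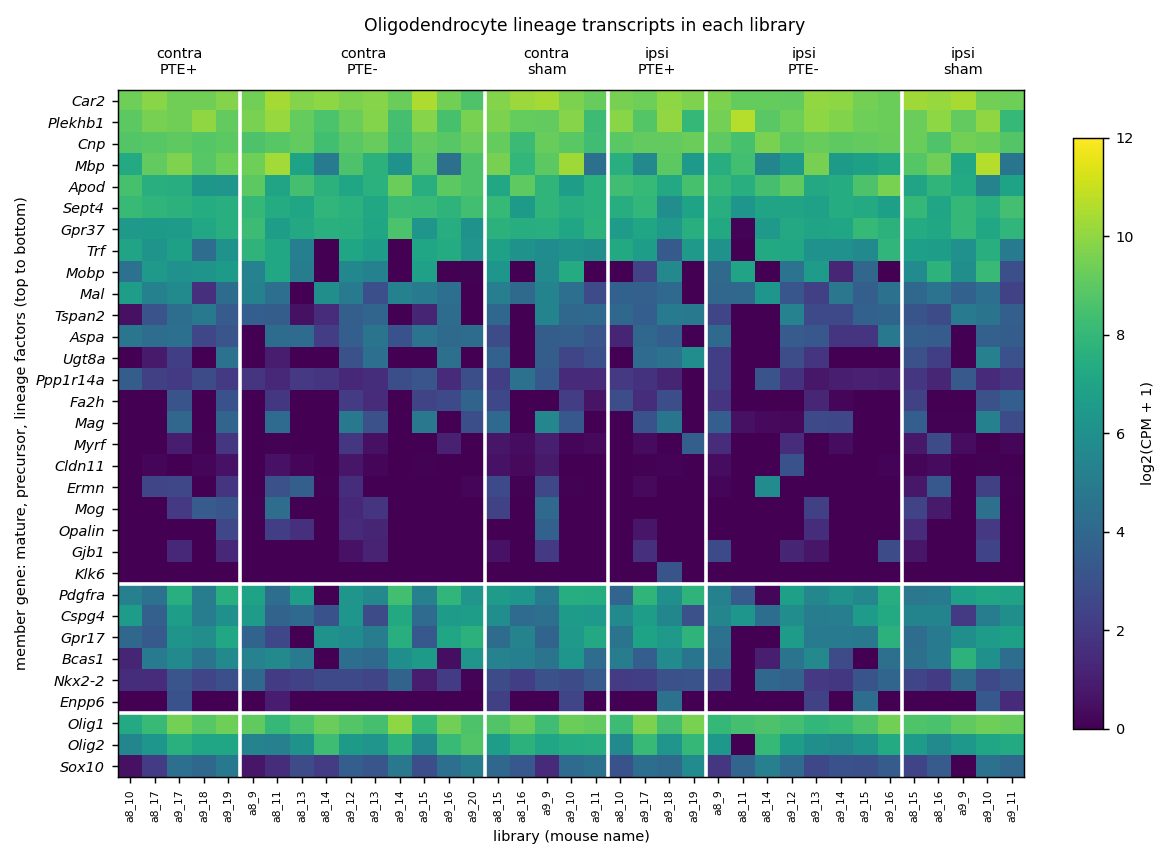
Level of the 32 members (rows, mature above precursor above lineage factors) in the 37 libraries (columns, by group and mouse), as log2(CPM + 1) on the colour scale. Car2 and Cnp are even across libraries, while Mobp, Gpr17 and Mag are near 0 in some libraries and well detected in others of the same group.

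Members differed in evenness. The SD of log2(CPM + 1) over the 37 libraries was 0.321 for Cnp and 0.427 for Car2, against 2.86 for Mobp, 2.08 for Gpr17, a receptor of committed precursors, 2.00 for Mag and 1.74 for Mbp. Mobp exceeded 3 counts in 14 of 20 contralateral and 13 of 17 ipsilateral libraries and reached 274 CPM in ipsilateral sham a9_10, the library that also had the most Mbp (1606 CPM) and Mog (20.2 CPM). Contralaterally Mobp fell into libraries at or near 0 and libraries well above it, so no pooled correlation of Mobp is given there. Ipsilaterally its levels ran on without such a gap.

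Taken by class, the summed level of the mature members was 1934 to 5015 CPM (median 3190), that of the precursor members 35.7 to 748 CPM (median 199.5) and that of the lineage factors 208 to 1248 CPM (median 551.5). In the contralateral hemisphere the median of the mature sum was 3275 CPM in PTE+, 3098 in PTE- and 3885 in sham. In the ipsilateral hemisphere it was 2881, 2992 and 3737 CPM. The ipsilateral ranges overlapped, at 2521 to 3596 CPM in PTE+, 2729 to 4039 in PTE- and 2166 to 4960 in sham. The precursor sum had ipsilateral medians of 373 CPM in PTE+, 152 in PTE- and 321 in sham, and its ranges overlapped as well (126 to 482, 35.7 to 581 and 112 to 406 CPM). No test was run on these sums.

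**Figure D2:**
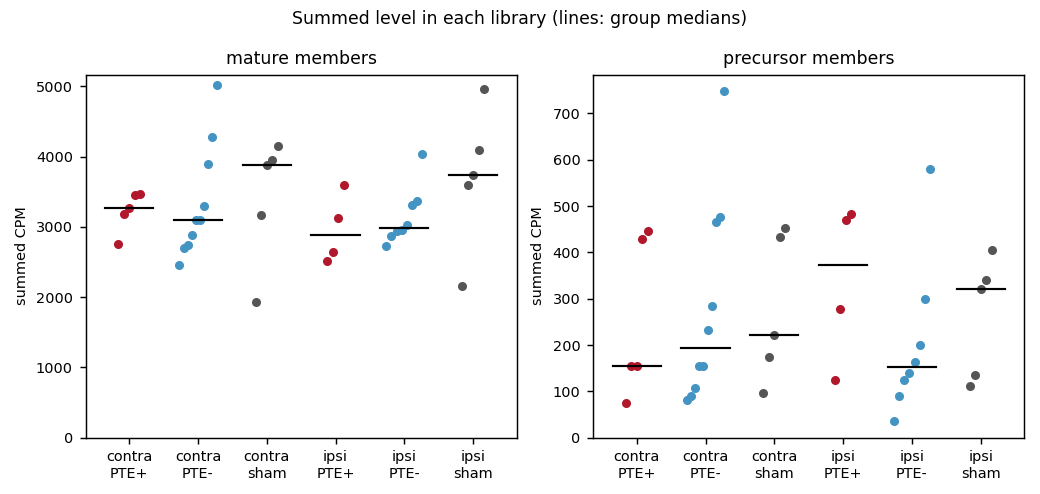
Summed CPM of the 23 mature members (left) and the 6 precursor members (right) in each library, by group, with lines at the group medians. Every group overlaps every other, and single libraries such as contralateral PTE- a9_14 (748 CPM) carry the highest precursor sums.

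Of the lineage factors, Olig1 was above 162 CPM in every library and had group medians of 346 to 562 CPM. Olig2, its partner in specifying the lineage, ranged from 0 in ipsilateral PTE- a8_11 to 423 CPM in contralateral PTE- a9_20. Sox10, which drives the myelin genes with MYRF, was low, with a median of 10.2 CPM and a maximum of 53.6 CPM in ipsilateral PTE+ a9_19, the library with the most Gpr17 (223 CPM) and Ugt8a (57.8 CPM).

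Among the precursor genes, Pdgfra had group medians of 36.9 CPM (contralateral PTE+), 74.8 (contralateral PTE-), 97.6 (contralateral sham), 142 (ipsilateral PTE+), 46.9 (ipsilateral PTE-) and 107 CPM (ipsilateral sham). Cspg4 was more even between groups, with medians from 42.1 to 63.5 CPM, and Gpr17 medians ranged from 28.3 CPM in ipsilateral PTE- to 106 CPM in ipsilateral PTE+. Within every group the lowest and highest libraries of Pdgfra and Gpr17 were further apart than the group medians. Bcas1, which marks early myelinating cells, was highest in ipsilateral sham a9_9 at 216 CPM, against 65.1 CPM in the next ipsilateral sham library. Nkx2-2, a transcription factor of differentiating precursors, stayed between 0 and 16.9 CPM.

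Across the 17 ipsilateral libraries Gpr17 and Pdgfra varied together (Pearson's r = 0.916, permutation p = 1e-05, adjusted 8e-05; Spearman's rho = 0.936, permutation p = 1e-05, adjusted 4e-05), where 1e-05 is the smallest p that 100000 permutations can give. The relation was 0.896 without the 2 libraries farthest from the median of Gpr17, and it was 0.797 within the 6 a8 and 0.878 within the 11 a9 libraries. Across the 20 contralateral libraries r was 0.264 (permutation p = 0.253, adjusted 0.289) and rho 0.55 (permutation p = 0.0128, adjusted 0.0205), with r = 0.356 without the farthest 2. It was -0.478 within the 8 a8 and 0.763 within the 12 a9 libraries, so the contralateral relation did not hold within both prefixes. Mbp and Gpr17, a mature and a precursor gene, had no detectable relation in either hemisphere (contralateral r = -0.285, permutation p = 0.223, adjusted 0.289, rho = -0.316, permutation p = 0.173, adjusted 0.198, and ipsilateral r = -0.0434, permutation p = 0.87, adjusted 0.87, rho = -0.26, permutation p = 0.311, adjusted 0.311). In all, 8 relations were computed on log2(CPM + 1), chosen after the values had been seen, and the Benjamini-Hochberg adjustment covers all 8. The contralateral relation of Mbp with Mobp is not given because of the gap in Mobp, a choice made after its value, which passed the adjustment, was seen. Ipsilaterally Mbp and Mobp had r = 0.723 (permutation p = 0.00126, adjusted 0.00336) and rho = 0.731 (permutation p = 0.00146, adjusted 0.00389), with r = 0.726 without the farthest 2 libraries, 0.844 within a8 and 0.694 within a9. Within prefix, r of Mbp with Gpr17 was -0.256 (a8) and -0.379 (a9) contralaterally and 0.528 and -0.224 ipsilaterally, and without the farthest 2 libraries it was -0.0701 and -0.0548.

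**Figure D3:**
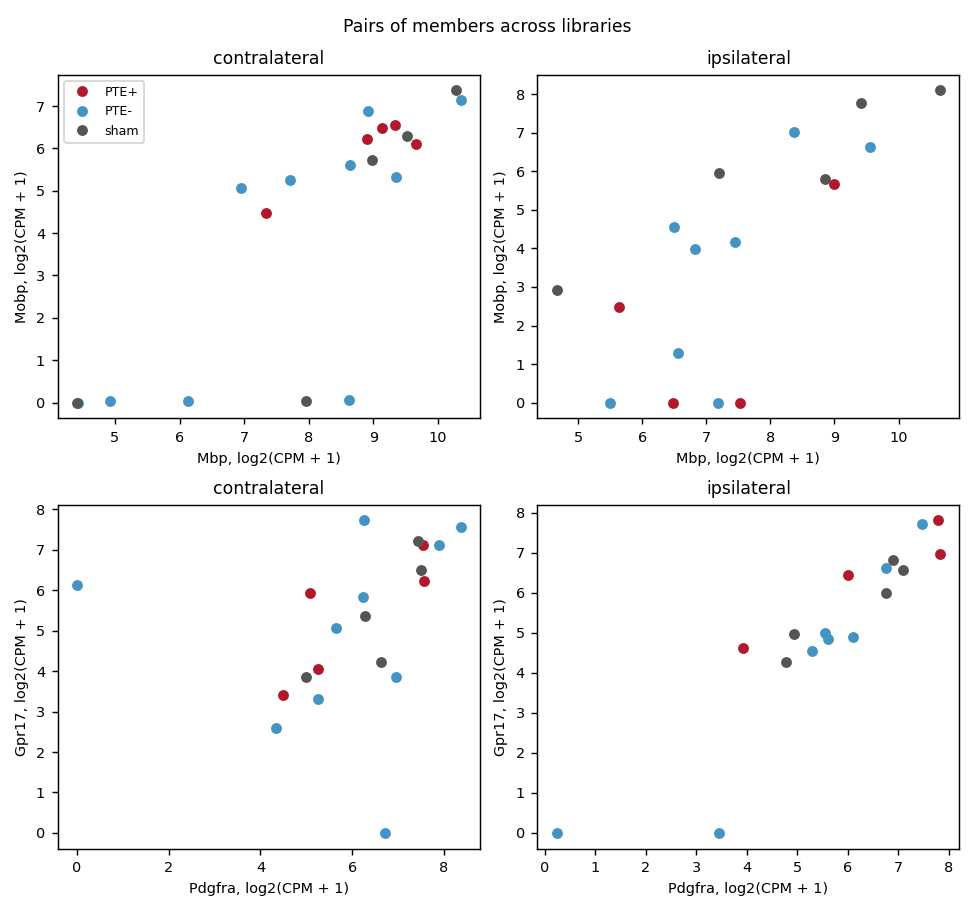
Mbp against Mobp (top) and Pdgfra against Gpr17 (bottom) in the contralateral (left) and ipsilateral (right) libraries, on log2(CPM + 1) axes, with PTE+, PTE- and sham points coloured. Gpr17 and Pdgfra lie along a line ipsilaterally (r = 0.916), and contralateral Mobp splits into libraries near 0 and libraries well above it.

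Some members differed less between the sides of a mouse than between different mice of a group. For Mobp the sides were still further apart than the median over all genes compared. For the 17 mice with both sides, the median absolute difference between the sides of a mouse in log2(CPM + 1) was 1.16 for Mobp, against 3.94 between different mice of a group. It was 0.677 against 1.87 for Gpr17 and 0.525 against 1.72 for Pdgfra. Over 13538 genes the medians of these differences were 0.749 and 0.907, and 0.00739%, 1.23% and 1.22% of those genes, respectively, had a same-mouse advantage as large. The values were 1.77 against 2.08 for Mbp and 0.647 against 0.629 for Sept4, where 24.2% and 73.0% of genes did so. Among others, Mag (2.62 against 2.34) and Fa2h (1.81 against 1.48) differed more between the sides of a mouse than between mice. The sides of a mouse share its name prefix, whereas different mice of a group need not. Mouse and prefix therefore cannot be told apart in these values. Gpr17 of the 2 sides correlated at r = 0.523 (permutation p = 0.0286, adjusted 0.0572; rho = 0.638, permutation p = 0.0067, adjusted 0.0134), and r was 0.332 without the 2 farthest mice. It was 0.0363 within the 6 a8 mice and 0.525 within the 11 a9 mice. Mbp of the 2 sides correlated at r = 0.495 (permutation p = 0.0444, adjusted 0.071; rho = 0.348, permutation p = 0.171, adjusted 0.198), with r = 0.378 without the 2 farthest mice, 0.71 within a8 and 0.411 within a9. These are descriptions chosen after the values were seen.

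In a fit with the name prefix as a covariate, no member had an adjusted p below 0.05, nor did any gene (0%). At an unadjusted p below 0.05, 4 members were higher in a9 than in a8 contralaterally (Gjb1, Myrf, Gpr17 and Sox10) and none lower, beside 2.01% and 2.15% of all genes. Ipsilaterally 3 were higher (Pdgfra, Gpr17 and Enpp6) and 1 lower (Ermn), beside 1.78% and 2.9%. For Pdgfra the ipsilateral log2 fold change was 2.44 (SE 0.72, p = 0.00336, adjusted p = 0.936), and for Gpr17 it was 2.66 ipsilaterally (p = 0.0347) and 2.12 contralaterally (p = 0.0175). What the prefix stands for was not given.

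The group comparisons ask whether these transcripts differed with epilepsy or injury on each side. Of the 32 members, 30 passed the filter on low counts in each hemisphere. With edgeR's quasi-likelihood test no member had an adjusted p below 0.05 in any of the 9 comparisons, against 0.00683% of all genes in contralateral PTE+ against PTE- and 0% in the others. DESeq2 and limma on log2(TPM + 1) also called none. At an unadjusted p below 0.05 edgeR gave 8 member results over the 9 comparisons, with 30 or 31 members tested in each. Of all genes 1.23% to 3.71% had such a p with edgeR, depending on the comparison. DESeq2 gave 11 member results and limma 14, for which the share of all genes was not obtained. The criteria of the study's methods, a p below 0.05 from DESeq2 (taken here as unadjusted), at least 1.2-fold change and a mean above 5 TPM in a compared group, were counted as a second rule, with edgeR's p in place of DESeq2's. Comparisons within a hemisphere share libraries. The exact permutation tests of single members, 192 over the 6 group comparisons, are not adjusted for their number.

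Contralaterally, Apod was the 1 member that met these criteria in PTE+ against PTE-, where 1.26% of all genes did (2.21% at the unadjusted p alone). Apod encodes a lipid-binding lipocalin. Its levels were 365, 189, 178, 81.8 and 75.2 CPM in the PTE+ libraries and 127 to 641 CPM (median 275.5) in the PTE- libraries, so the groups overlapped. The log2 fold change was -0.95 (SE 0.45), with an edgeR p of 0.045 before and 1.0 after adjustment. Exact permutation on log2(CPM + 1) gave p = 0.0803. Within prefix the difference was 0.01 among a8 libraries and -1.51 among a9 libraries (exact permutation p = 0.0357), so it was not seen in both. Leaving out 1 library at a time gave an edgeR p of 0.00914 to 0.134, under 0.05 in 6 of 15 fits. Of 15 astrocyte markers 2 were lower at an unadjusted p below 0.05 (Clu and Gjb6), with summed levels of 36170 to 41330 CPM in PTE+ and 35960 to 53000 CPM in PTE-, and their part in the Apod value was not tested. No member met the criteria in PTE- against sham (0.751% of all genes, 1.54% at the unadjusted p alone) or in PTE+ against sham (0.512% and 1.23%). The members of smallest p there were Sept4 (log2 fold change 0.30, SE 0.23, p = 0.207) and Gpr37 (-0.63, SE 0.37, edgeR p = 0.102, exact permutation p = 0.0476).

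Ipsilaterally, 3 members met the criteria in PTE- against sham, Sept4, Apod and Car2, where 0.986% of all genes did (1.58% at the unadjusted p alone). Sept4 and Apod had an unadjusted p below 0.05 with all 3 tools, whereas the other members under it differed by tool. Sept4 had 77.1 to 187 CPM (median 128) in PTE- and 134, 192, 251, 253 and 341 CPM in sham. The PTE- libraries lay mostly below the sham libraries, with overlap at 134 to 187 CPM, and the log2 fold change was -0.89 (SE 0.33). The exact permutation p was 0.0109 and the edgeR p 0.0132, or 1.0 after adjustment. Within prefix the difference in mean log2(CPM + 1) was -0.57 in a8 and -0.92 in a9 (exact permutation p = 0.4 and 0.0179).

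Apod went the other way in the same comparison. It had 150 to 757 CPM (median 300.2) in PTE- and 40.8, 122, 126, 161 and 232 CPM in sham, and the log2 fold change was 1.2 (SE 0.44). The exact permutation p was 0.0163 and the edgeR p 0.0134, or 1.0 after adjustment. The difference was 0.57 within a8 and 1.84 within a9 (exact permutation p = 0.4 and 0.0536). Dcn, a fibroblast marker and 1 of 9 mural and fibroblast genes tested, also had an unadjusted p below 0.05 and was higher. The 9 genes had a median log2 fold change of 0.99, beside 0.02 over all genes. Their summed level was 842 to 3171 CPM in PTE- and 1176 to 4010 CPM in sham. In that sum Vtn was the most abundant gene (median 1418 TPM over all libraries). All 9 exceeded 3 counts in 30 or more libraries, and the part of these cells in the Apod result was not tested.

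Car2, which hydrates carbon dioxide, had 558 to 1077 CPM (median 666) in PTE- and 652, 696, 1117, 1256 and 1365 CPM in sham, which overlap. Its log2 fold change was -0.57 (SE 0.26). The exact permutation p was 0.0894 and the edgeR p 0.0381, or 1.0 after adjustment. Leaving out 1 library at a time gave an edgeR p of 0.0131 to 0.127, under 0.05 in 5 of 13 fits, and the same range was 0.00838 to 0.0476 for Sept4 and 0.00548 to 0.0342 for Apod. Among the astrocyte markers Aldoc and Aldh1l1 also had lower levels at an unadjusted p below 0.05 (2 of 15, summed level 22460 to 54420 CPM in PTE- and 36190 to 54520 CPM in sham), and their part in the Car2 and Sept4 values was not tested. The choroid plexus sum was 27.4 to 4941 CPM in PTE- and 0.0668 to 169 CPM in sham. Without PTE- a8_11 or a9_12, the libraries of the highest sums, the edgeR p of Car2 was 0.066 and 0.068. DESeq2 gave Car2 a p of 0.0837 and limma 0.0465.

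Bcas1 had 0 to 49.1 CPM (median 11.8) in PTE- and 18.9, 20.3, 29.4, 65.1 and 216 CPM in sham, so the groups overlapped. Its difference in mean log2(CPM + 1) was -2.65, with an exact permutation p of 0.0381. The log2 fold change was -2.34 with edgeR (p = 0.0812), -2.38 with DESeq2 (p = 0.046) and -2.42 with limma (p = 0.0123). Ermn had a DESeq2 log2 fold change of -6.36 (p = 0.0106) but 1.2 with edgeR (p = 0.635), and without PTE- a8_14, which held 53.8 CPM, edgeR gave -6.66 (p = 0.00813). The direction of Ermn therefore rested on 1 library.

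In ipsilateral PTE+ against PTE- no member met the criteria, against 0.503% of all genes (1.75% at the unadjusted p alone). The smallest p belonged to Ugt8a, which makes the galactolipids of myelin. It was 0, 17.4, 21.1 and 57.8 CPM in the PTE+ libraries and 0 to 6.19 CPM (median 0) in PTE-, so 3 of 4 PTE+ libraries lay above all PTE- libraries, with a log2 fold change of 3.92 (SE 2.08, edgeR p = 0.0756). The exact permutation p was 0.0263, with -0.75 within a8 and 3.91 within a9 (exact permutation p = 0.0179), so the 1 a8 PTE+ library did not share it.

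In ipsilateral PTE+ against sham 1 member met the criteria, Mog, against 0.49% of all genes (1.66% at the unadjusted p alone). Mog reached the 5 TPM minimum only through sham (mean 5.24 TPM, with 20.6 TPM in a9_10). Most of the libraries that carried it past the low-count filter were also sham. Meeting the criteria is therefore no support for a lower level in PTE+. Mog was at or below 3 counts in all 4 PTE+ libraries and was 20.2, 4.48, 0.854, 0 and 0 CPM in sham. The PTE+ libraries were therefore at least 86.1-fold lower than the sham mean, with 3 counts per library as the floor, but 2 sham libraries were also at 0, so the groups overlapped. Without sham a9_10, which held most of the sham sum, the bound was 22.5-fold, an alternative added after the data were seen. The exact permutation p on log2(CPM + 1) was 0.206 and the edgeR p 0.0275, or 1.0 after adjustment. Leaving out 1 library at a time gave an edgeR p of 0.0218 to 0.0634, under 0.05 in 3 of 6 fits, and without sham a8_15, a8_16 or a9_10 the low-count filter dropped Mog, so those fits give no value. Aldoc and Aldh1l1 were again lower at an unadjusted p below 0.05 (2 of 15, 35050 to 46220 CPM summed in PTE+), and their part was not tested. Mobp was 49.5, 4.57, 0 and 0 CPM in PTE+ and 6.52 to 274 CPM in sham (log2 fold change -3.24, SE 2.25, p = 0.167; exact permutation p = 0.0397).

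**Figure D4:**
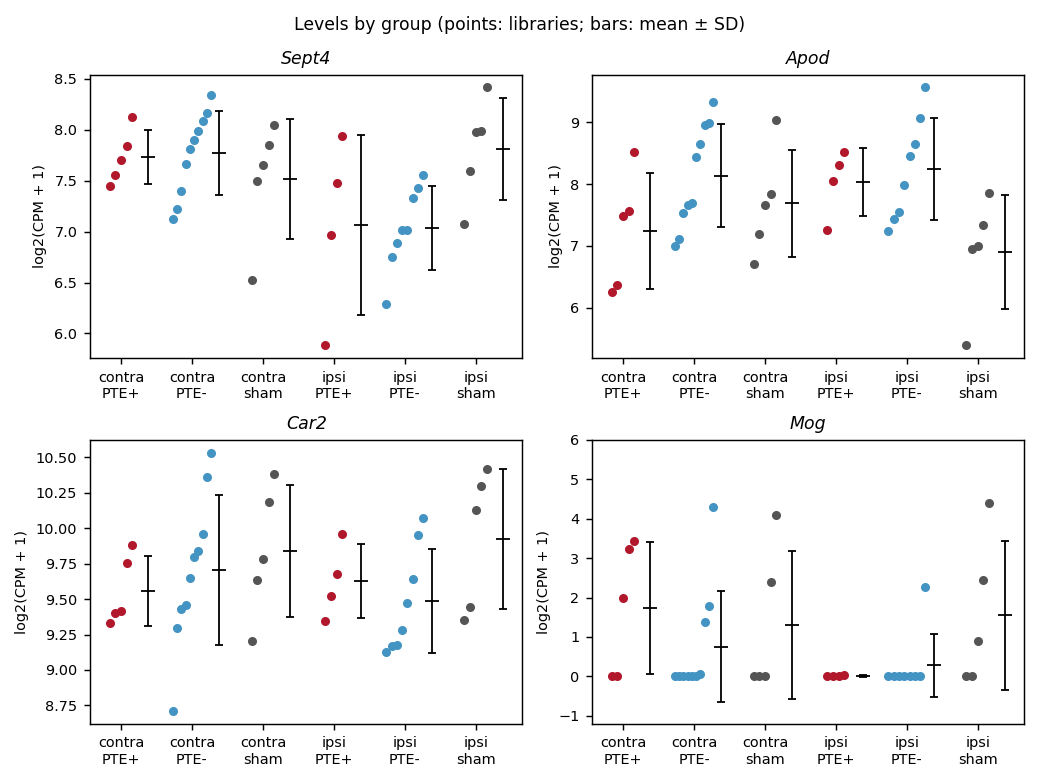
Levels of Sept4, Apod, Car2 and Mog in each library by group, as log2(CPM + 1), with mean ± SD beside each group (n = 5, 10, 5, 4, 8 and 5). Ipsilateral PTE- libraries lie mostly below ipsilateral sham for Sept4 and above it for Apod, and Mog exceeds 3 counts in 12 of 37 libraries, 0 of 4 in ipsilateral PTE+.

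By class, the fitted log2 fold changes of the mature members tested had a median of -0.81 in ipsilateral PTE- against sham and -0.52 in PTE+ against sham, beside 0.02 and 0.0016 over all genes. The second keeps its value with Mog at its bound. In ipsilateral PTE+ against PTE- the median was -0.23, beside -0.01 over all genes. The 23 other mature genes tested, described further below, had -0.31 in ipsilateral PTE- against sham and -0.20 in PTE+ against sham. The medians of the mature members contralaterally were -0.02 to -0.06, and those of the 6 precursor members ipsilaterally were 0.92 in PTE+ against PTE-, -0.26 in PTE- against sham and 0.44 in PTE+ against sham. Leaving out 1 library at a time moved the precursor medians to 0.08 to 1.12, -0.64 to -0.03 and -0.23 to 0.63, respectively. The lowest value of the first and the last, which turned negative, came without PTE+ a9_18. No class was tested.

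The hemisphere comparison used the 34 libraries of the 17 mice with both sides, 12 injured and 5 sham, and asked whether the injured side differed from the other side of the same brain. Sept4 was the member that stood out. In the sham mice its level on the contralateral and then the ipsilateral side was 264 and 251 CPM in a8_15, 91.4 and 134 in a8_16, 229 and 253 in a9_9, 180 and 192 in a9_10 and 201 and 341 CPM in a9_11, so 4 of 5 were higher ipsilaterally. In the 4 PTE+ mice it was 279 and 178 CPM in a8_10, 207 and 244 in a9_17, 173 and 58.0 in a9_18 and 187 and 124 CPM in a9_19. In the 8 PTE- mice it lay between 148 and 287 CPM contralaterally and between 77.1 and 187 CPM ipsilaterally. Sept4 was lower on the injured side in 11 of 12 injured mice, 8 of 8 PTE- and 3 of 4 PTE+, with PTE+ a9_17 the exception.

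The mean difference of Sept4, ipsilateral minus contralateral, was -0.71 ± 0.45 (SD, n = 12) on log2(CPM + 1) in injured mice, and an exact sign-flip permutation test gave p = 0.000977. In sham mice it was 0.29 ± 0.34 (SD, n = 5; exact permutation p = 0.125, with 0.0625 the smallest that 5 mice allow). The difference of the differences was -1.0, and exact permutation of the injury label over mice gave p = 0.000646, a 2-sided value over 1 of 32 members examined. These values weight the 12 injured mice equally, whereas edgeR's injured value gives the PTE+ and PTE- groups equal weight. With edgeR the injured log2 fold change was -0.66 (SE 0.21, p = 0.00399, adjusted 0.866) and the difference from sham -1.03 (SE 0.38, p = 0.0096, adjusted 1.0). With the mouse as a block these were -0.74 (p = 0.000583) and -1.13 (p = 0.00202), adjusted 1.0 in both. Over the alternatives the adjusted p was 0.101 to 1.0 and 0.376 to 1.0, so neither passed adjustment over all 15731 genes. It held within both prefixes, at 4 of 4 a8 mice (-0.77) and 7 of 8 a9 mice (-0.68). Leaving out any 1 of the 34 libraries kept the edgeR p between 0.00273 and 0.0282 for the difference from sham.

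In injured mice 2 members met the criteria between the sides, Sept4 and Mog, where 1.19% of all genes did (3.71% at the unadjusted p alone). Mog was lower on the injured side in 5 mice, higher in 1 and at or below 3 counts on both sides in the other 6 (exact permutation p = 0.0469, edgeR p = 0.0143, or 1.0 after adjustment). Among the criteria, it reached the 5 TPM minimum through the contralateral PTE+ libraries of these mice, where it was higher. That it met the criteria is therefore no support for a lower injured side. In the sham mice no member met them (0.165% and 2.05%), and Cnp had the smallest p (log2 fold change 0.41, SE 0.23, p = 0.0826). In the difference between injured and sham 1 member did, Sept4 (0.553% and 2.4%). With the mouse as a block the sham comparison gave 1 member, Cnp (p = 0.0471), and the difference 2, Sept4 and Apod (p = 0.0317), where 0.331% and 0.718% of all genes had an unadjusted p below 0.05. In the injured mice Sept4 and Mog (p = 0.017) were under it with the block, beside 1.32% of all genes.

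Cnp was higher ipsilaterally in 5 of 5 sham and 11 of 12 injured mice, with a mean difference of 0.34 ± 0.18 (SD, n = 5; exact permutation p = 0.0625) and 0.26 ± 0.40 (SD, n = 12; exact permutation p = 0.0293). The injured and sham differences of Cnp were -0.08 apart (exact permutation p = 0.658). Apod was lower ipsilaterally in 5 of 5 sham mice (-0.78 ± 0.46, SD, n = 5; exact permutation p = 0.0625) and in 4 of 12 injured mice, with 3 of 4 PTE+ and 5 of 8 PTE- mice higher. Its injured mean was 0.43 ± 1.17 (SD, n = 12; exact permutation p = 0.226), and the difference from sham was 1.21 (exact permutation p = 0.0435).

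Mobp was lower ipsilaterally in 8 of 12 injured mice, with 4 of 4 PTE+ mice among them, higher in 2 and at or below 3 counts on both sides in 2. The PTE+ pairs were 21.2 and 0, 67.2 and 4.57, 73.2 and 49.5, and 92.1 and 0 CPM. It was higher in 4 of 5 sham mice, from the counting limit to 218.5 CPM in a8_16. The mean was -1.49 ± 2.41 (SD, n = 12; exact permutation p = 0.0576) in injured and 2.22 ± 3.34 (SD, n = 5; exact permutation p = 0.188) in sham mice, and the difference from sham was -3.71 (exact permutation p = 0.0166). EdgeR gave -2.53 (SE 2.41, p = 0.303) for it without the mouse as a block and -6.2 (p = 0.0523, adjusted 1.0) with it. With the block the injured log2 fold change was -3.66 (p = 0.0685) and that of sham mice 2.54 (p = 0.289). The median difference on log2(CPM + 1) was -4.04 in PTE+ and -0.08 in PTE- mice, groups that edgeR's injured value weights equally. Mbp was lower in 6 of 12 injured and 2 of 5 sham mice.

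**Figure D5:**
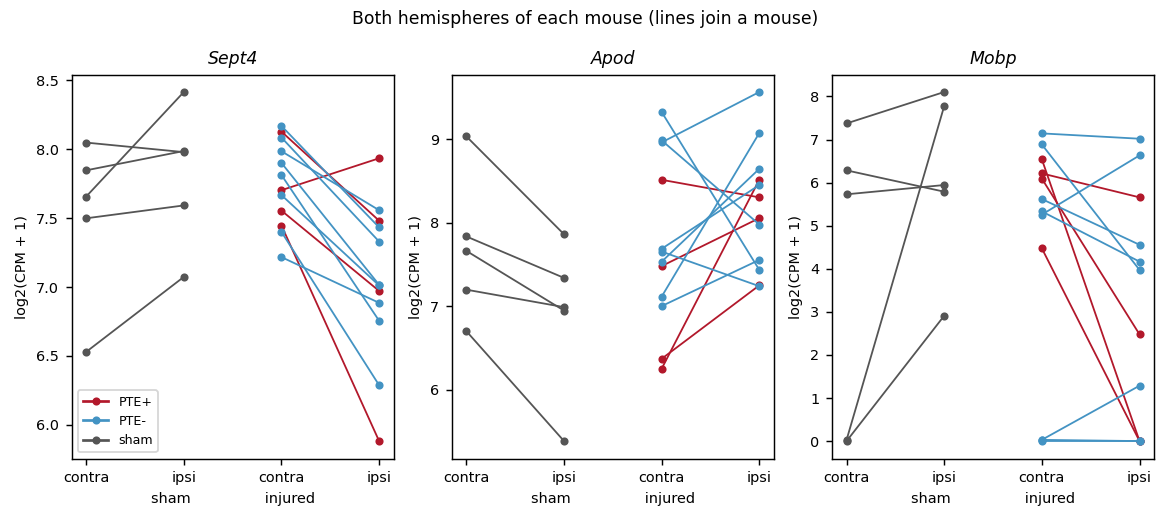
Levels of Sept4, Apod and Mobp on the contralateral and ipsilateral side of each mouse (lines), as log2(CPM + 1), for 5 sham mice and 12 injured mice (PTE+ and PTE- coloured). Sept4 is lower on the injured side in 11 of 12 injured mice and higher in 4 of 5 sham mice, Apod is lower ipsilaterally in 5 of 5 sham mice, and Mobp varies between near 0 and over 100 CPM.

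Other cell markers also differed between the sides of injured mice. Of 6 choroid plexus genes, 3 had higher levels ipsilaterally at an unadjusted p below 0.05 (Kl, Ttr and Kcnj13), and their summed level was 4941 CPM in ipsilateral PTE- a9_12 and 4242 CPM in a8_11, against at most 606 CPM in the other ipsilateral and 659 CPM in the contralateral libraries. Ttr exceeded 3 counts in 12 of 37 libraries. Endothelial Cldn5 (1 of 7 genes) and mural Rgs5 (1 of 9) had lower levels ipsilaterally, and none of 15 astrocyte genes passed. The part of these cells in the Sept4, Mobp and Apod values was not tested.

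The wider lineage was examined with 24 other mature and 16 other precursor genes. Contralaterally none had an unadjusted p below 0.05 in any comparison, and no gene of either list had an adjusted p below 0.05 in any of the 9 comparisons (edgeR). Ipsilaterally in PTE+ against PTE-, 4 of the 23 other mature genes tested were lower at an unadjusted p below 0.05, Hapln2, a link protein of nodes of Ranvier, Gsn, an actin-severing protein, Cryab, a small heat-shock protein, and Tmem125. Beside them 1.75% of all genes had such a p in either direction, and 2 of the 4 met the criteria of the methods. Hapln2 and Tmem125 exceeded 3 counts in only 12 and 8 of 37 libraries, each with a median of 0 TPM. Of 16 other precursor genes 1 was higher, Fyn, a kinase that signals in differentiating oligodendrocytes. In PTE- against sham Gsn and Sirt2, a deacetylase of myelinating cells, passed in opposite directions (1.58% of all genes passed). In PTE+ against sham Hapln2 and Tmem125 were lower (1.66% of all genes passed), and neither met the criteria. The median log2 fold change of the other mature genes was -0.51 in ipsilateral PTE+ against PTE-, beside -0.01 over all genes and -0.23 over the mature members. Against sham it was -0.31 in ipsilateral PTE- and -0.20 in ipsilateral PTE+, where the mature members had -0.81 and -0.52.

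Exons of 11 members overlap exons of other annotated genes in GENCODE M21. Trf shares 2108 bases with Gm20425 on its strand, Pdgfra 456 bases with an antisense gene, Cnp 154 bases with Dnajc7 on the other strand and Sept4 45 bases with Gm11492. The library kit named in the labels is not stated to keep strand, so reads in such stretches cannot be assigned with certainty.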

How the data were processed

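The authors trimmed the paired reads with Trim Galore 0.6.4 and mapped them to mm10 with RSEM 1.2.28 and Bowtie2 2.4.1 (versions from the submitters' processing notes). They deposited RSEM expected counts and TPM per gene, one pair of tables for each hemisphere. The annotation release is not given in the sources used here. Symbols were matched for 21856 of 21975 gene identifiers.

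Expected counts were rounded to whole numbers. Genes passing filterByExpr (14642 contralateral, 14903 ipsilateral, 15731 in the hemisphere fit) were tested with edgeR 4.0.16 (R 4.3.3), using TMM and glmQLFTest, 2-sided, with Benjamini-Hochberg adjustment over all genes tested. Each hemisphere was fitted with its 3 groups together. The hemisphere fit used 6 groups and had no mouse term, with the mouse as a block as an alternative, since both sides of a mouse carry its name. Injured in these fits is the average of PTE+ and PTE- with equal weight. Deviations from the group means correlated at a median of 0.0759 within a mouse (17 mice) and -0.0197 between mice of a group. CPM are rounded counts scaled to the library total, and log2 values use a pseudocount of 1. Single members were tested with exact permutation tests (unadjusted). Alternatives used DESeq2 1.42.0, limma 3.58.1 on log2(TPM + 1) or log2(TPM + 0.1) with and without a filter of 1 TPM, RLE size factors, no filter, the prefix as a covariate, the compared groups alone and each library left out. The code was tested on simulated data.

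Library totals were 25371887 to 59846479 counts, which puts 3 counts at 0.0501 to 0.118 CPM. Floors cover counting error only. PCR duplicates were not marked by molecular identifiers. Libraries of a group come from different mice.

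The members and the marker lists were chosen with earlier results of these data known. Members named throughout were Mbp, Mog, Mag, Mobp, Cnp, Sox10, Olig1, Olig2, Pdgfra, Cspg4, Gpr17, Bcas1 and Enpp6, the 5 of highest median TPM, and in each comparison every member with an unadjusted p below 0.05 or else the member of the smallest p. Other values of members outside this rule were chosen after they were seen. Start regions are from RefSeq on GRCm38.p6, matched by symbol for 23 members.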

Additional observations from a re-analysis of the deposited data

Results flagged for a closer look

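In groups of 4 to 10 libraries, 114 sets of values of the named members were examined for a single library whose gap to the nearest other was large for the range of its group. Chance alone marks about 1 in 20 such groups of continuous values, and 12 were found. That rate does not describe 5 of the 12, in which every other library was at 0, so that any single library above 0 is marked. For Mog these were contralateral PTE- a8_11 at 18.6 CPM (the others 0 to 2.47), ipsilateral PTE- a9_13 at 3.78 CPM (the others 0) and ipsilateral PTE+ a9_19 at 0.0211 CPM (the others 0), the last of them under the counting limit. For Enpp6 they were contralateral PTE+ a9_17 at 7.16 CPM, contralateral PTE- a8_11 at 0.962 CPM and ipsilateral PTE+ a9_18 at 21.3 CPM, with 0 in all other libraries of each group. The others were single low libraries. Ipsilateral PTE- a8_11, the library with the fewest genes and a choroid plexus sum of 4242 CPM, had Olig2 at 0 CPM (the others 50.2 to 265) and Gpr37 at 0.0983 CPM (the others 88.6 to 259.5). Contralateral PTE+ a8_10 had Mobp at 21.2 CPM (the others 67.2 to 92.1) and Bcas1 at 1.40 CPM (the others 23.7 to 53.3). Contralateral PTE- a8_14 had Pdgfra at 0 CPM (the others 19.3 to 327), and ipsilateral sham a9_9 had Cspg4 at 3.14 CPM (the others 33.0 to 61.7).

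Of 32 members, 3 had a difference between the sides that differed between injured and sham mice at an exact permutation p below 0.05, not adjusted for the number of members. This permutation test was run on the members only. Without the share of all genes that would pass it, the count cannot be called high or low. Sept4 differed by -1.0 (exact permutation p = 0.000646), Mobp by -3.71 (exact permutation p = 0.0166) and Apod by 1.21 (exact permutation p = 0.0435) on log2(CPM + 1). None had an adjusted edgeR p below 0.05.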

How the results depend on the processing

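Of 1155 alternative values of 61 results, 1108 were marked as the same, 47 as moved and 0 as reversed. Only the fold change of a single member could be marked as reversed, and its unadjusted p was not considered. A count had to stay close to its main value and a median within its spread, whatever its sign. The precursor median of ipsilateral PTE+ against sham was thus marked as the same at 0.44 and at -0.23 (without PTE+ a9_18). No alternative gave a member an adjusted p below 0.05 in any comparison. The bound on Mog in ipsilateral PTE+ against sham moved from 86.1-fold to 22.5-fold without sham a9_10, an alternative added after the data were seen. The counts that moved are those of members meeting the criteria of the methods. Contralateral PTE+ against PTE- went from 1 to 0 with RLE size factors and with limma at either pseudocount or without its filter, and its mature median from -0.02 to 0.55 with limma on log2(TPM + 0.1). Contralateral PTE+ against sham went from 0 to 1 with the compared groups alone. Ipsilateral PTE+ against PTE- went from 0 to 2 with limma on log2(TPM + 1), with or without the filter, and to 1 with log2(TPM + 0.1). Ipsilateral PTE+ against sham went from 1 to 2 with DESeq2 and with all 3 limma settings, and the injured against sham difference from 1 to 3 with limma at either pseudocount. The cause was not tested, and the share of all genes meeting the criteria was not obtained under these alternatives. With the mouse as a replicate block (pairing) the sham count went from 0 to 1 and the difference from 1 to 2, and no other count moved.

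Leaving out 1 library at a time gave counts of 0 to 2 for contralateral PTE+ against PTE- (0 without PTE+ a8_17, a9_17 or a9_18 or PTE- a8_9, a8_13, a9_14 or a9_16, 2 without PTE- a9_15), 0 to 1 for PTE- against sham (1 without sham a8_16) and 0 to 1 for PTE+ against sham (1 without PTE+ a9_19). Ipsilaterally they were 0 to 1 for PTE+ against PTE- (1 without PTE+ a8_10 or PTE- a9_16), 2 to 5 for PTE- against sham (5 without PTE- a9_13) and 0 to 2 for PTE+ against sham (0 without PTE+ a8_10 or sham a8_15, 2 without PTE+ a9_18 or sham a8_16, a9_10 or a9_11). Between hemispheres they were 0 to 1 in sham mice (1 without contralateral a8_15 or a9_9 or ipsilateral a9_11), 2 to 3 in injured mice and 1 to 2 for the difference (2 without contralateral PTE+ a8_10 or sham a9_9, or ipsilateral PTE- a9_13 or sham a8_16). The mature median ranged from -0.88 to -0.44 in ipsilateral PTE- against sham (the latter without sham a9_9), from -0.80 to -0.17 in PTE+ against sham (the latter without sham a9_10) and from -1.06 to -0.28 for the difference (the latter without contralateral PTE+ a9_19). The counting limit of 3 counts is 0.0501 to 0.118 CPM, and a member under it was not detectable here. Detection did not follow depth alone, as ipsilateral sham a9_9 had the most counts (59846479) but 10886 genes detected. Why a member was at 0 in single libraries was not tested.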
